A study of Sus scrofa with 12 samples.

Results

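The ribosomal protein genes of the endometrium were taken from the KEGG annotation in the deposited table, as all genes placed in the ribosome pathway (ko03010). These were 126 of the 20674 genes of the table. By their names, 79 were cytosolic ribosomal protein genes (48 RPL genes of the large subunit and 31 RPS genes of the small subunit) and 37 were mitochondrial ribosomal protein genes (24 MRPL and 13 MRPS genes). The other 10 had other names (FAU, RSL24D1 and 7 genes with LOC names among them) and are described apart from both classes. After the filter on low counts, 77 cytosolic, 36 mitochondrial and 7 other members were tested among 15351 genes. RPL10L and RPL18 had 0 counts in all 12 libraries and MRPS7 had 10 counts in all, and with 3 LOC genes of 2 to 14 counts they were not tested.

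A ribosome is built of a large and a small subunit, each made of ribosomal RNA and many different ribosomal proteins, most of them needed in equal numbers. The cytosolic ribosome makes the proteins of the nucleus, cytoplasm and secretory pathway. The mitochondrial ribosome makes the few proteins encoded by mitochondrial DNA, and its own proteins are nuclear gene products imported into the organelle. Many messenger RNAs of cytosolic ribosomal proteins begin with a run of pyrimidines (the TOP motif), through which their translation follows growth signals.

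The tissue came from Landrace × Yorkshire multiparous sows, fed from breeding over the 114 days of gestation. The low-fiber diet held 3.73% crude fiber and the high-fiber diet 7.46%. N-carbamylglutamate (NCG), an analog of the N-acetylglutamate that activates the first step of the urea cycle, was added at 0.05% in 2 of the 4 groups. The groups were L − N (low fiber, no NCG), L + N (low fiber with NCG), H − N (high fiber, no NCG) and H + N (high fiber with NCG). Each had 3 endometrial libraries of poly(A) RNA, and the sources used here do not name the sow of each library. Total counts ran from 14369781 to 19309724 per library. The spread between replicates, as a biological coefficient of variation (the variation beyond counting error), had a median of 0.172 for the cytosolic genes, 0.156 for the mitochondrial genes and 0.206 for all genes tested.

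The level of each gene was compared with that of other genes only per length, as FPKM (fragments scaled by gene length and by library total). The median FPKM was 738.9 for the cytosolic genes, 20.7 for the mitochondrial genes and 6.98 for all genes tested. Among the cytosolic genes, 22 had a mean above 1000 FPKM, 54 had one above 500, and 6 had one under 100. RPL6 stood at 1657 FPKM and RPL7 at 1596, among the highest. The large and small cytosolic subunits had medians of 723.0 and 743.2 FPKM. At the lower end, RPL3L, the muscle form of RPL3, had a mean of 0.353 FPKM beside 870.7 for RPL3. RPL26L1 stood at 52.8 FPKM and RPS27L at 88.3. The mitochondrial genes ran from MRPS21 (46.0 FPKM), MRPL12 (43.1) and MRPL9 (42.2) down to MRPL1 (2.83), MRPS18C (1.81) and MRPS7 (0.0370). These levels depend on the length that the table gives a gene. RPS2 was listed with 5903 bases, RPS29 with 1695, RPL9 with 1586 and MRPL1 with 14048, against a median of 763 bases for the cytosolic and 1329 for the mitochondrial genes. In addition, ribosomal protein genes have many near-identical copies in mammalian genomes, and how reads that match several places were counted is not given in the sources used here, so that a level of 0, as for RPL18, may not be the level of the gene.

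Together, the cytosolic genes took a few percent of all counts. Their share was 5.91%, 3.75% and 3.99% in L − N replicates 1, 2 and 3, and 4.25%, 4.55% and 4.85% in L + N. It was 6.88%, 6.34% and 5.01% in H − N, and 5.39%, 5.34% and 4.22% in H + N. The mean was highest in H − N (6.07% ± 0.963, SD, n = 3). L − N had 4.55% ± 1.18, L + N had 4.55% ± 0.302 and H + N had 4.98% ± 0.658. The ranges of H − N and L + N did not overlap, while L − N replicate 1 lay inside the range of H − N. For the mitochondrial genes L − N had 0.114% ± 0.00621, L + N had 0.107% ± 0.00527, H − N had 0.115% ± 0.00976 and H + N had 0.113% ± 0.00245, and their ranges overlapped between all groups. In a bulk sample, a lower share from fewer cells of a type and from less RNA per cell cannot be told apart.

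**Figure D1:**
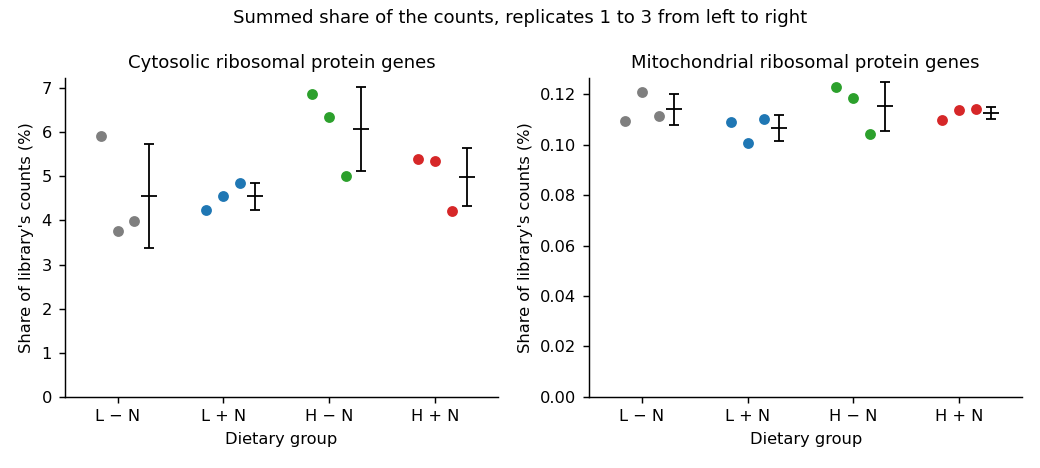
Share of each library's counts (%, y axis) taken by cytosolic (left) and mitochondrial (right) ribosomal protein genes in the 4 dietary groups. Each point is 1 library and the bar beside it is the mean ± SD (n = 3). For the cytosolic genes, L − N replicate 1 at 5.91% lies well above the other L − N libraries at 3.75% and 3.99%.

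Within a library, the cytosolic genes moved as a block. In H − N, 76, 77 and 67 of the 77 tested stood above their own mean over the 12 libraries, in replicates 1, 2 and 3. In L − N, the numbers were 72, 3 and 6, so that replicate 1 looked like the H − N libraries and unlike its own group. In L + N they were 1, 4 and 15, and in H + N 62, 52 and 7. For 73 of the 77 genes the group mean was highest in H − N (94.8%, against 26.4% of all genes tested), and for 66 it was lowest in L + N. The interquartile range of the deviations in 1 library, on the log2 scale, was 0.10 to 0.24 for the cytosolic genes and 0.32 to 0.55 for all genes tested. The mitochondrial genes, with an interquartile range of 0.16 to 0.28, did not share this pattern, with 17, 29 and 25 of 36 above their mean in L − N, 22, 26 and 19 in H − N, and 19, 14 and 27 in H + N. L + N was the exception with 6, 3 and 10, and it had the lowest group mean for 29 of the 36 genes (80.6%, against 26.1% of all genes tested).

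**Figure D2:**
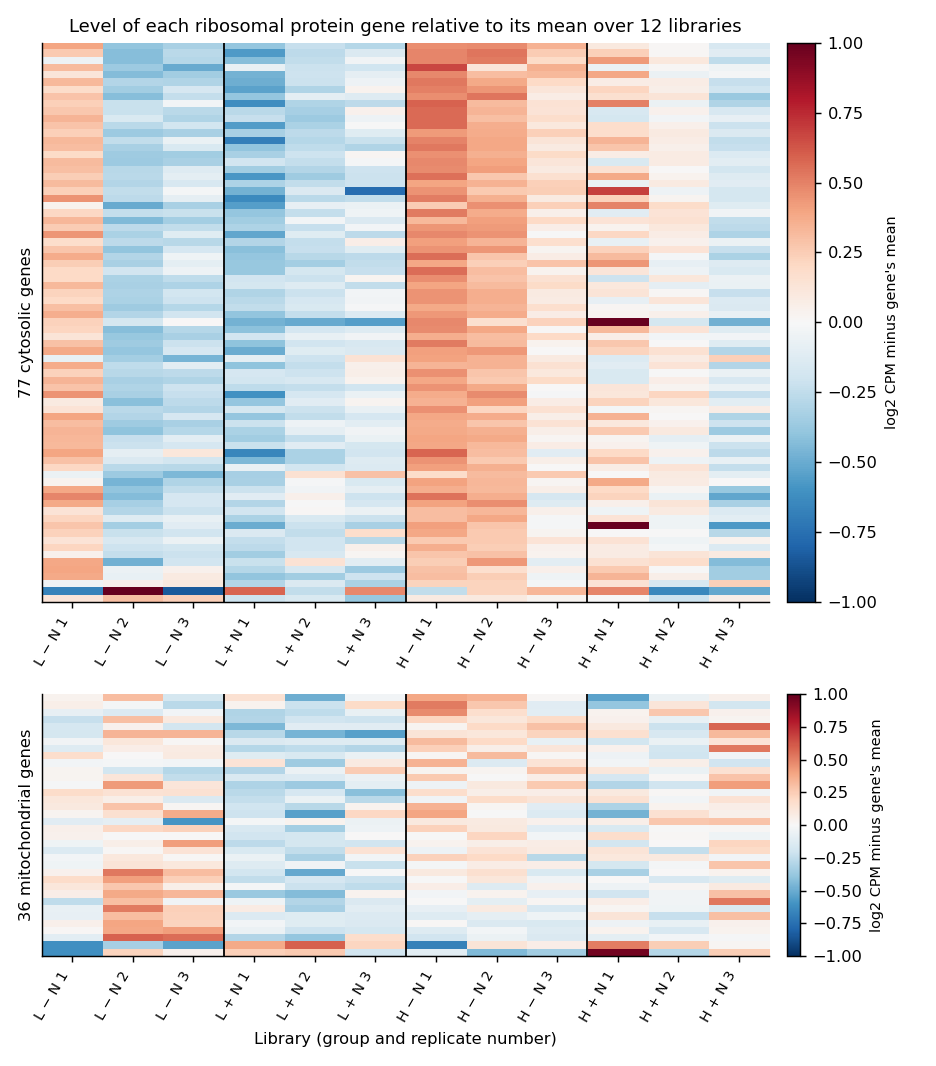
Level of each tested ribosomal protein gene (1 line per gene, log2 CPM minus the gene's mean over 12 libraries, color scale ending at 1 and −1) in each library (x axis, by group and replicate). The 77 cytosolic genes (top) are high in the H − N libraries and in L − N replicate 1 and low in L − N replicates 2 and 3 and in L + N, while the 36 mitochondrial genes (bottom) differ more from one another and are mostly lowest in L + N (29 of 36 by group mean). Genes are ordered by their mean in H − N.

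For the effect of dietary fiber (DF), H − N and H + N together (HF) were compared with L − N and L + N together (LF), 6 libraries against 6. The cytosolic genes had a median log2 fold change of 0.29, and 76 of the 77 had a value above 0, as had 53.7% of all genes tested, whose median was 0.02. In the quasi-likelihood test of edgeR, adjusted by the Benjamini-Hochberg method, 0 cytosolic genes passed an adjusted p of 0.05, where 0.0521% of all genes tested passed. At an unadjusted p under 0.05 there were 42 cytosolic genes, all higher in HF, where 9.3% of all genes tested were higher at that level. DESeq2 on the same libraries called 10 cytosolic genes, all higher, where it called 7.33% of all genes. RPS15, a protein of the small subunit, stood at 478, 326 and 345 CPM (counts scaled to a common library size by TMM) in L − N, at 317, 381 and 414 in L + N, at 614, 545 and 551 in H − N, and at 573, 422 and 434 in H + N. The H − N libraries lay above every LF library, and those of H + N overlapped the LF range. Its log2 fold change was 0.47 (standard error 0.126, edgeR's adjusted p = 0.0999). The 31 small subunit genes had a median of 0.33 and the 46 large subunit genes tested one of 0.27. Among members with known further roles, the values were 0.30 for RPSA, which also serves as a laminin receptor, 0.20 for RPS6, the substrate of S6 kinase, 0.33 for RPS19, and 0.18, 0.38 and 0.31 for the stalk proteins RPLP0, RPLP1 and RPLP2. RPL5 and RPL11, which bind MDM2 when ribosome assembly is disturbed, had log2 fold changes of 0.19 and 0.30 (edgeR's adjusted p = 0.516 and 0.310). The only cytosolic value below 0 was that of RPL3L (−0.27, standard error 0.454), which had the lowest level of the cytosolic genes tested. Further members named for their roles or paralogs had log2 fold changes of 0.30 (RPS3), 0.37 (RPS27A, a ubiquitin fusion), 0.18 (RPL10), 0.12 (RPL13A), 0.23 (RPS4X), 0.39 (RPL39) and 0.48 (RPL38), and none of these passed.

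The mitochondrial genes had a median log2 fold change of 0.08 between HF and LF, with 27 of 36 above 0, where 53.7% of all genes tested were. By edgeR's quasi-likelihood test 0 of them passed (0.0521% of all genes tested), and DESeq2 called 0 (7.33% of all genes). An unadjusted p under 0.05 was found for 4, all higher, near the 9.3% of all genes tested that were higher at that level. MRPL18, a large subunit protein, had 0.31 (standard error 0.107) and MRPS5, a small subunit protein, had 0.27 (standard error 0.0965), with an edgeR adjusted p of 0.158 and 0.162.

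**Figure D3:**
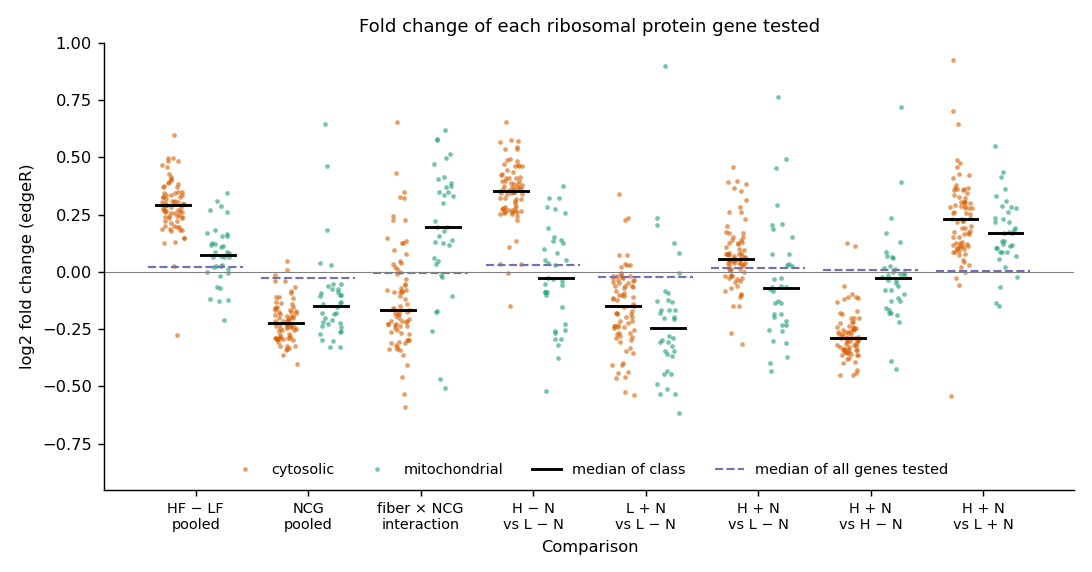
Log2 fold change (edgeR, y axis) of each tested cytosolic (orange) and mitochondrial (green) ribosomal protein gene in 8 comparisons (x axis), with the median of each class as a black line and that of all genes tested as a dashed line. The cytosolic genes lie above 0 for HF against LF (median 0.29) and for H − N against L − N (0.35) and below 0 for H + N against H − N (−0.29), and comparisons that share a group are not independent.

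Without NCG, fiber was compared between H − N and L − N. The median of the cytosolic genes was 0.35, with 75 of 77 above 0. By edgeR's test 0 passed, where 5.27% of all genes tested did. At an unadjusted p under 0.05 there were 30, all higher in H − N, where 11.3% of all genes tested were higher. DESeq2 called 6 (13.6% of all genes), all higher, among them RPS2, RPS15, RPL4, RPL28 and RPL22L1. RPS2 stood at 1658, 1375 and 1265 CPM in L − N and at 2309, 2222 and 1858 in H − N, without overlap, and its log2 fold change was 0.57 (standard error 0.163, edgeR's adjusted p = 0.0657). The RPS2 gene overlaps RNF151 and NDUFB10 on the opposite strand. RPS15 had 0.57 (standard error 0.178, edgeR's adjusted p = 0.0826). In all, 9 of the 77 cytosolic genes had every H − N library above every L − N library, which is 11.7%, where 12.8% of all genes tested had this. The mitochondrial genes had a median of −0.03, and its sign turned without H − N replicate 3 (0.03), L − N replicate 2 (0.05) or L − N replicate 3 (0.02). With edgeR 0 of 36 passed, 5 had an unadjusted p under 0.05 (1 higher and 4 lower, where 24.4% of all genes tested had one), and DESeq2 called 3, all lower (MRPS10, MRPS9 and MRPL3). MRPS10 had the smallest p, with −0.38 (standard error 0.122, edgeR's adjusted p = 0.0928), and MRPS9 had −0.32 (standard error 0.111, edgeR's adjusted p = 0.111).

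The number of genes that passed depended on 1 library in both comparisons. Without L − N replicate 1, in the same edgeR test, 31 cytosolic genes passed for HF against LF, where 6.99% of all genes passed, and 40 passed for H − N against L − N, where 13% did, and all of these were higher with the high-fiber diet. The medians were then 0.39 and 0.56. With any other library left out, 0 cytosolic genes passed for HF against LF, and for H − N against L − N 0 or 1 did (the latter without H + N replicate 3). Of all genes tested, 0% to 0.735% passed for HF against LF with these libraries left out, and 0% to 5.92% for H − N against L − N. RPS12 had the smallest adjusted p without L − N replicate 1 in both comparisons. It stood at 640 CPM in L − N replicate 1 and at 370 and 388 in replicates 2 and 3, against 672, 674 and 618 in H − N, and its log2 fold change between H − N and L − N was 0.79 without that replicate and 0.49 with all 12 libraries (standard error 0.188, edgeR's adjusted p = 0.139). The same replicate 1 held 5248 CPM in 6 smooth muscle markers, summed, where the other 11 libraries held 839 to 2044, and 759 CPM in 4 erythroid markers, where the others held 35 to 518. None of the 6 smooth muscle markers had a group mean of 0. Their part in the result was not tested.

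**Figure D4:**
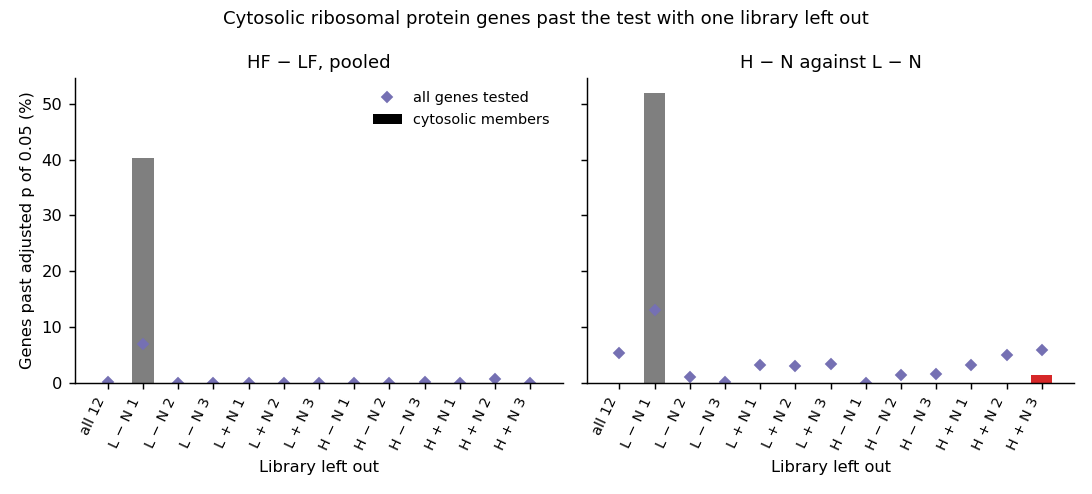
Share of the 77 cytosolic ribosomal protein genes past an adjusted p of 0.05 (bars, %, edgeR) for HF against LF (left) and H − N against L − N (right), with all 12 libraries and with each library left out (x axis, bars colored by the group of that library). Diamonds give the share of all genes tested. Without L − N replicate 1, 31 and 40 genes pass, and with any other library left out 0 or 1 does.

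The 6 macrophage markers had lower values in HF (median log2 fold change −0.89, from −1.08 to −0.65). With edgeR 0 of them passed and 6 had an unadjusted p under 0.05, where 10.2% of all genes tested were lower at that level. For H − N against L − N the median was −1.64 and 5 of the 6 passed as lower, where 3.71% of all genes tested did. Their summed level was 981 to 2623 CPM in L − N, 808 to 1144 in L + N, 498 to 743 in H − N and 815 to 1027 in H + N. Within L − N, replicates 2 and 3 held 2567 and 2623 CPM and replicate 1, with the high cytosolic levels, 981. None of the 6 had a group mean of 0. The part of these cells in the level of the ribosomal protein genes was not tested. Markers of the endometrial epithelium and stroma were present in every library. The summed level of 8 epithelial markers was 1536 to 2309 CPM in H − N, the group with the highest cytosolic levels, and at most 1492 CPM in each of the other 9 libraries. Within groups, the order was not that of the cytosolic share. H − N replicate 3 had the highest sum, 2309 CPM, and the lowest cytosolic share of its group, 5.01%. In L − N, replicate 2 held 1482 CPM and replicate 1 held 1373, with cytosolic shares of 3.75% and 5.91%. For H − N against L − N, 7 of the 8 had a value above 0 (median 0.48), where 53.5% of all genes tested had. By edgeR's test 1 of the 8 passed as higher, where 1.56% of all genes tested did. Their part in the level of the ribosomal protein genes was not tested. The summed level of 7 stromal markers was 22313 to 50605 CPM.

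For the effect of NCG, L + N and H + N together were compared with L − N and H − N together. The cytosolic genes had a median log2 fold change of −0.22, and 2 of 77 were above 0, where 46.9% of all genes tested were and their median was −0.03. Short genes had lower values with NCG in general. Genes outside the pathway of at most 1702 bases, the length under which 90% of the cytosolic genes fall, had a median of −0.14 over 2347 genes, and with a correction for gene length the cytosolic median was −0.09. In the quasi-likelihood test of edgeR, adjusted by the Benjamini-Hochberg method, 1 cytosolic gene passed, which was lower, where 7.27% of all genes tested passed (5.67% higher and 1.6% lower). At an unadjusted p under 0.05 there were 20, all lower (10.4% of all genes tested), and DESeq2 called 1 (13.6% of all genes).

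The gene that passed was RPS27L, the paralog of the small subunit protein RPS27 and a known target of p53 (gene identifier 100738416, Sscrofa11.1, chromosome 1, 108881330 to 108886334). It stood at 71.7, 81.0 and 77.5 CPM in L − N, at 57.0, 59.2 and 50.6 in L + N, at 70.1, 70.4 and 67.1 in H − N and at 66.1, 57.0 and 68.5 in H + N. All L + N libraries lay below all L − N and H − N libraries, while H + N overlapped H − N. Its log2 fold change was −0.29 for NCG over both diets (standard error 0.0753, edgeR's adjusted p = 0.0413) and −0.47 for L + N against L − N (standard error 0.107, edgeR's adjusted p = 0.0225). RPS27 had −0.33 for NCG (standard error 0.151, edgeR's adjusted p = 0.207). The call for NCG was kept only without H + N replicate 3 or without L − N replicate 1 and was lost when any other single library was left out (edgeR's adjusted p up to 0.0993). That for L + N against L − N was lost without any L + N replicate, L − N replicate 2 or L − N replicate 3 (edgeR's adjusted p up to 0.0921). With the length correction, the values of RPS27L were −0.14 and −0.26, and neither passed.

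Of the mitochondrial genes, 2 passed edgeR's test for NCG, 1 higher and 1 lower, where 7.27% of all genes tested passed, and DESeq2 called 3. The median of the class was −0.15, and 5 of 36 were above 0. MRPL1, a protein of the large subunit, was the higher one (gene identifier 100513028, chromosome 8, 73305444 to 73423524). It stood at 24.8, 30.0 and 26.1 CPM in L − N, at 49.2, 57.5 and 44.1 in L + N, at 23.6, 41.5 and 39.8 in H − N, and at 54.1, 45.0 and 38.4 in H + N. The L − N libraries lay below those of L + N and H + N, while H − N overlapped L − N and H + N. The log2 fold change was 0.64 for NCG (standard error 0.149, edgeR's adjusted p = 0.0262), 0.90 for L + N against L − N (standard error 0.211, edgeR's adjusted p = 0.0251) and 0.76 for H + N against L − N (edgeR's adjusted p = 0.0491). The gene overlaps CNOT6L on the opposite strand, so that reads of that gene could be among its counts if the strand was not used. MRPL3, also of the large subunit, was the lower one (gene identifier 100156322, chromosome 13, 984985 to 1024185). Its values were 68.2, 79.9 and 71.0 CPM in L − N, 50.7, 53.4 and 51.9 in L + N, 59.8, 64.9 and 58.5 in H − N, and 60.1, 53.8 and 55.2 in H + N. Every L − N library was higher than every library of the other groups, and every L + N library was lower. The log2 fold change was −0.30 for NCG (standard error 0.0701, edgeR's adjusted p = 0.0265). The NCG call of MRPL1 was lost without H + N replicate 1, L + N replicate 2 or L − N replicate 3, with edgeR's adjusted p up to 0.0706. That of MRPL3 was lost without H + N replicate 2, H − N replicate 2, any L + N replicate, L − N replicate 2 or L − N replicate 3, with edgeR's adjusted p up to 0.0737.

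On the low-fiber diet, NCG was compared between L + N and L − N. The median of the mitochondrial genes was −0.24, and −0.17 with the length correction, where short genes outside the pathway had −0.19. In all, 31 of 36 had a value below 0, and 16 (44.4%) had every L + N library below every L − N library, where 17.2% of all genes tested had this. By edgeR's test 4 of the 36 passed, 1 higher and 3 lower, where 9.6% of all genes tested passed (5.97% higher and 3.63% lower). MRPL1 was the higher one. MRPL3 had −0.49 (standard error 0.0993, edgeR's adjusted p = 0.0156), MRPL33 −0.45 (standard error 0.127, edgeR's adjusted p = 0.0488) and MRPS10 −0.43 (standard error 0.122, edgeR's adjusted p = 0.0489). MRPL33, a small protein of the large subunit, stood at 19.5, 18.9 and 19.0 CPM in L − N and at 14.2, 15.2 and 12.8 in L + N, with 17.8 to 19.4 in H − N and 16.7 to 18.3 in H + N. MRPS10 stood at 59.5, 77.3 and 78.8 CPM in L − N and at 56.6, 51.0 and 52.3 in L + N, and its H − N and H + N libraries, at 52.8 to 60.6, lay near those of L + N. The count of passing genes was 8 without L − N replicate 1 (12.6% of all genes) and fell to 0 without L + N replicate 1, L + N replicate 2 or L − N replicate 3 (4.17%, 1.59% and 1.33% of all genes), and to 1 without L + N replicate 3 or L − N replicate 2 (3.9% and 5.56%). DESeq2 called 10, 1 higher and 9 lower (18% of all genes). The cytosolic genes had a median of −0.15 in this comparison, and the sign turned with the length correction (0.03) and without L − N replicate 1 (0.06). RPS27L was the 1 cytosolic gene that passed.

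The combined diet was set against each of the others. Between H + N and L − N, the cytosolic median was 0.06, and by edgeR's test 0 of 77 passed, where 7.97% of all genes tested did. There were 3 cytosolic genes at an unadjusted p under 0.05 (2 higher and 1 lower), where 27.5% of all genes tested were, and DESeq2 called 0 (17.5% of all genes). The smallest p-values were those of RPS27L (−0.26, edgeR's adjusted p = 0.135) and RPL36A (0.39, edgeR's adjusted p = 0.148). The sign of this median turned without L − N replicate 2 (−0.050), and it was 0.27 without L − N replicate 1. The mitochondrial median was −0.07, and it was 0.01 with the length correction. Of these genes, 2 passed, MRPL1 as above and MRPL3 with −0.37 (standard error 0.0992, edgeR's adjusted p = 0.0443). With single libraries left out this count ran from 0 to 4, and it was 4 when L − N replicate 1 was removed (11.7% of all genes). It was 0 without any 1 of the H + N and L + N libraries, H − N replicate 2, L − N replicate 2 or L − N replicate 3. Of all genes tested, 0.00642%, 6.87% and 2.11% passed without H + N replicates 1, 2 and 3. Without L + N replicates 1, 2 and 3 the shares were 5.36%, 5.49% and 5.46%. They were 5.72% without H − N replicate 2, and 3.17% and 0.0257% without L − N replicates 2 and 3.

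On the high-fiber diet, most cytosolic genes had lower values in the group with NCG, though none passed. Short genes outside the pathway also stood lower there. Their median deviation from their own means (log2, mean of 3 libraries) was −0.028 in H + N and 0.051 in H − N. For the cytosolic genes it was 0.006 and 0.290. Between H + N and H − N the cytosolic median was −0.29, with 2 of 77 above 0, and 25 (32.5%) had every H + N library below every H − N library, where 5.13% of all genes tested had this. By edgeR's test 0 cytosolic and 0 mitochondrial genes passed, as did 0 (0%) of all genes tested. There were 5 cytosolic genes at an unadjusted p under 0.05, all lower, and 0 mitochondrial genes, where 3.32% of all genes tested were lower. DESeq2 called 0 of both classes and 0.319% of all genes. RPL13 and RPL8, both of the large subunit, had the smallest p-values, each with a log2 fold change of −0.45 (edgeR's adjusted p = 0.529 and 0.542). RPL8 stood at 831, 710 and 616 CPM in H − N and at 502, 577 and 501 in H + N, without overlap. MRPL12, which also binds the mitochondrial RNA polymerase, had −0.39 (edgeR's adjusted p = 0.588) and MRPS18C had 0.72 (edgeR's adjusted p = 0.611).

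With NCG in both diets, H + N was compared with L + N. The cytosolic median was 0.23 with 73 of 77 above 0, and 23 (29.9%) had every H + N library above every L + N library, where 5.86% of all genes tested had this. The mitochondrial median was 0.17 with 32 of 36 above 0, and 10 had such a separation. Of all genes tested, 50.9% had a value above 0. Short genes outside the pathway also stood higher in H + N. Their median deviation from their own means (log2, mean of 3 libraries) was −0.028 in H + N and −0.095 in L + N. For the mitochondrial genes it was 0.012 and −0.153. By edgeR's test 0 members of either class passed, as did 0 (0%) of all genes tested. There were 8 cytosolic and 3 mitochondrial genes at an unadjusted p under 0.05, all higher, where 3.01% of all genes tested were higher. DESeq2 called 0 of both classes and 0.0131% of all genes. RPL38, of the large subunit, had 0.64 (standard error 0.232, edgeR's adjusted p = 0.910). It stood at 329, 198 and 181 CPM in H + N and at 147, 185 and 121 CPM in L + N, so that H + N replicate 1 was the highest and replicate 3 lay inside the range of L + N. RPL29 had 0.49, and of the mitochondrial genes MRPL34 had 0.55 and MRPL20 0.44 (edgeR's adjusted p = 0.910 for each).

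The difference of the NCG effect between the diets was tested as an interaction (the effect on the high-fiber diet minus that on the low-fiber diet). The medians were −0.17 for the cytosolic and 0.20 for the mitochondrial genes. With edgeR 0 members passed, as did 0 (0%) of all genes tested. At an unadjusted p under 0.05 there were 2 cytosolic genes and 7 mitochondrial genes, the latter all with a positive value. Of all genes tested 12.8% were at that level, and 7.48% were so with a positive value. DESeq2 called 0 of both classes and 2.06% of all genes. RPL22L1 had the smallest p among the cytosolic genes (−0.59, standard error 0.226, edgeR's adjusted p = 0.324), and MRPS10 among the mitochondrial genes (0.50, standard error 0.173, edgeR's adjusted p = 0.302).

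**Figure D5:**
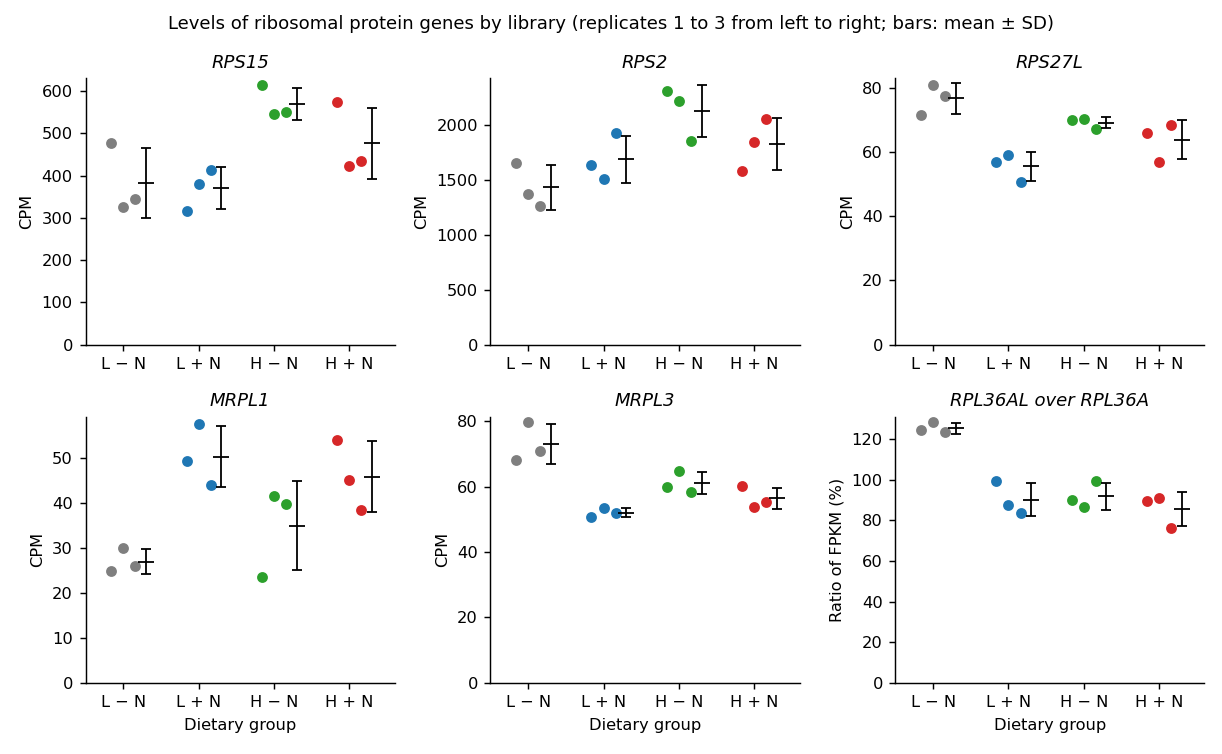
Levels of 5 ribosomal protein genes (CPM, y axis) and the ratio of RPL36AL to RPL36A (FPKM, %, bottom right) in each library of the 4 dietary groups (x axis), with replicates 1 to 3 from left to right and the mean ± SD (n = 3) as bars. MRPL3 is highest in all L − N libraries and lowest in all L + N libraries, and the RPL36AL ratio is 123% to 128% in L − N and at most 99.4% in the other libraries.

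A few cytosolic genes exist as pairs of paralogs whose products take the same place in the ribosome. RPL36AL and RPL36A had FPKM of nearly the same height. The ratio of RPL36AL to RPL36A was 124%, 128% and 123% in L − N, 99.4%, 87.6% and 83.7% in L + N, 89.9%, 86.3% and 99.1% in H − N and 89.5%, 91.1% and 76.1% in H + N. All L − N libraries, replicate 1 included, lay above the other 9, and the other groups overlapped. No test was run on this ratio. By gene, RPL36A had a log2 fold change of 0.49 for H − N against L − N (standard error 0.164, edgeR's adjusted p = 0.102), and RPL36AL had one of 0.03 (standard error 0.165, edgeR's adjusted p = 0.926). For L + N against L − N the values were 0.07 for RPL36A and −0.41 for RPL36AL (edgeR's adjusted p = 0.814 and 0.137). The ratio of RPL22L1 to RPL22 was 23.8% to 32.4% in L − N, 38.2% to 49.4% in L + N, 27.2% to 40.5% in H − N and 29.3% to 38.8% in H + N, and L + N did not overlap L − N. RPL22L1 stood at 161, 130 and 122 CPM in L − N and at 190, 208 and 201 in H − N, and its log2 fold change was 0.54 (standard error 0.160, edgeR's adjusted p = 0.0751). The ratio of RPS27L to RPS27 was 8.85% to 13.8% in L − N and 6.79% to 8.84% in H − N, which did not overlap but lay close, and the other pairs of groups overlapped. That of RPL26L1 to RPL26 was 5.12% to 5.44% in L + N and 5.48% to 9.92% in H + N, again close and without overlap, and the other pairs of groups overlapped. The ratio of RPL3L to RPL3 (0.0182% to 0.102%) overlapped between all groups. Reads of such pairs can match both genes, so that these ratios are uncertain.

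Among the 10 members of other names, FAU, which encodes a ubiquitin-like protein fused to the small subunit protein eS30, stood at 17.6 FPKM, and the gene overlaps MRPL49 on the opposite strand. Its counts were 39.2 CPM in H + N replicate 1 and 7.72 to 16.2 in the other 11 libraries. The same library stood apart for RPL9 (468 CPM, the others 143 to 282) and RPS29 (443 CPM, the others 126 to 258). RPL9 overlaps KLB on the opposite strand. The LOC gene that shares its KEGG number with RPL35A (LOC100519675) had 70.5 CPM there and 20.7 to 45.6 elsewhere. The log2 fold change of FAU for HF against LF was 0.65 with all libraries and 0.13 without H + N replicate 1.

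The machinery that makes ribosomes was followed with gene lists written from general knowledge. All 40 genes of the ribosome biogenesis list (nucleolar proteins and assembly factors) had a value above 0 for HF against LF, with a median log2 fold change of 0.36. By edgeR's test 0 of them passed, and 26 had an unadjusted p under 0.05, all higher, where 9.3% of all genes tested were. By library, their summed level did not follow that of the cytosolic genes. It was 2643, 2786 and 2603 CPM in L − N replicates 1, 2 and 3, where only replicate 1 had high cytosolic levels. In H + N it was 3152, 2737 and 4237 CPM, highest in replicate 3, which had the lowest cytosolic share of its group. L + N held 2662 to 3002 CPM and H − N 3324 to 3795. FBL, the methyltransferase fibrillarin, had a mean of 55.0 ± 4.41 CPM for L − N, of 58.9 ± 7.16 for L + N, of 83.6 ± 6.39 for H − N and of 75.9 ± 16.3 for H + N (SD, n = 3), and for HF against LF its value was 0.48 (standard error 0.108, edgeR's adjusted p = 0.0747). For H − N against L − N, FBL had 0.60 and passed (standard error 0.154, edgeR's adjusted p = 0.0472). It was the 1 gene of the 40 that did, where 1.56% of all genes tested passed as higher. RRP12, a factor of small subunit export, had 0.57 for HF against LF (edgeR's adjusted p = 0.0882). Of the 11 RNA polymerase I genes tested, 10 were above 0 (median 0.16) and 0 passed. TAF1B, a part of its initiation factor SL1, had 0.34 (edgeR's adjusted p = 0.0779), and TAF1D had 0.62 for NCG and passed (standard error 0.121, edgeR's adjusted p = 0.0140). The 18 other genes with TOP messenger RNAs had a median of 0.07 for HF against LF, with 12 above 0. HNRNPA1 had 0.43 (edgeR's adjusted p = 0.0690), while VIM, which encodes an intermediate filament protein, was lower by 0.98 on the log2 scale and passed (edgeR's adjusted p = 0.0343). By library, the summed level of the 18 TOP genes was 34690, 22294 and 23795 CPM in L − N replicates 1, 2 and 3. It was 23458 to 25443 CPM in L + N, 27133 to 31857 in H − N and 21074 to 27137 in H + N. In each group, the library with the lowest cytosolic share also had the lowest sum of TOP genes.

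For the mitochondrial side, the 12 translation factors had a median of 0.02 for HF against LF and 0.06 for NCG, and 2 of them passed as higher for NCG, where 5.67% of all genes tested did. MTRF1L, a release factor, had 0.52 (standard error 0.107, edgeR's adjusted p = 0.0170) and GFM2, a ribosome recycling factor, 0.63 (standard error 0.167, edgeR's adjusted p = 0.0434). The 17 assembly factors had medians of 0.04 and −0.06, and 0 passed in either, with 3 and 4 at an unadjusted p under 0.05 (19.5% and 23.6% of all genes tested). Another 37 tested genes named MRPL or MRPS lie outside the KEGG pathway of the table. Their medians were 0.13 for HF against LF and −0.09 for NCG, and by edgeR's test 0 passed in either, with 8 (21.6%) at an unadjusted p under 0.05 in each, near the 19.5% and 23.6% of all genes tested. MRPL50 was higher in H − N than in L − N (0.62, standard error 0.137, edgeR's adjusted p = 0.0327), and MRPS24 was lower in L + N than in L − N (−0.55, standard error 0.148, edgeR's adjusted p = 0.0394). The 16 genes listed as regulators of ribosome production (genes of the mTORC1 pathway, LARP1, the MYC family and MDM2) had medians of 0.07 for HF against LF and −0.16 for NCG, and 0 passed, with 1 and 5 at an unadjusted p under 0.05, where 19.5% and 23.6% of all genes tested were.

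Markers of dividing cells moved with NCG, where the cytosolic genes had lower values. All 7 proliferation markers passed edgeR's test as higher with NCG (median log2 fold change 1.13), where 5.67% of all genes tested did. Their summed level was 55 to 161 CPM in L − N, 299 to 423 in L + N, 174 to 226 in H − N and 279 to 383 in H + N, and none had a group mean of 0. For HF against LF the 7 had a median of 0.40, all above 0, and 0 passed. The part of dividing cells in the levels of the ribosomal protein genes was not tested.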

How the data were processed

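The authors deposited, for each gene and library, a read count without normalization and an FPKM value made from that count, the gene length and the library total, with the coordinates on Sscrofa11.1 and the KEGG annotation. The submitters' processing notes name fastp 0.22.0, HISAT2 2.1.0 and HTSeq 0.9.1, and whether counting used the strand is not given in the sources used here. Libraries were assigned to groups by the code in their titles. Every member matched a pig RefSeq gene by identifier, start and end.

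R 4.3.3 was used, with edgeR 4.0.16 and its dependency limma 3.58.1. Low counts were filtered by filterByExpr on the 4 groups, and libraries were scaled by TMM. The quasi-likelihood fit had a mean for each group and used every library, with 8 residual degrees of freedom. The 8 comparisons were contrasts of these means, adjusted by the Benjamini-Hochberg method over 15351 genes. A member was counted as passing at an adjusted p under 0.05. With the thresholds of the paper, which add an absolute log2 fold change above 1, 0 members passed edgeR's test on all 12 libraries in any comparison, where 0% to 3.99% of all genes did. With DESeq2, the member LOC100518848 met these thresholds for NCG (log2 fold change −1.27, DESeq2's adjusted p = 0.0114). It had 210 counts in H − N replicate 3 and 22 to 73 in the other libraries. Log2 CPM used a prior count of 2. The FPKM values were used only for levels between genes. DESeq2 1.42.0, the tool of the paper, was an alternative, as were RLE scaling, TMM without the members, no filter, only the groups compared, a replicate block, a length correction (a lowess trend, span 0.3) and each library left out in turn. The script was tested on simulated data.

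Class medians and counts are descriptions, since members are not replicates. The members and the gene lists were chosen with earlier results of these data known. Genes are named by a rule: up to 3 passing genes in each direction per class and comparison, or the 2 with the smallest p where none passed, the 3 highest and lowest FPKM, members with known roles or paralogs, and the 2 genes with the smallest p of each list. Not every gene that the rule gives for the lists is printed, and a few members that it gives are not reported here. RPS12, RPL9, RPS29, the LOC genes and the genes named for DESeq2 calls alone were chosen after their values were seen. Replicates of a group differed by far more than sampling noise (chi-square per gene 22.8 to 98.6). Libraries are not tied to sows in the sources used here, so p-values measure the spread between these libraries, which may be technical in part.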

Additional observations from a re-analysis of the deposited data

Results flagged for a closer look

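MRPL3 was marked because its libraries moved in opposite directions with fiber on the 2 levels of NCG. Without NCG, all H − N libraries (58.5 to 64.9 CPM) lay below all L − N libraries (68.2 to 79.9 CPM), and with NCG all H + N libraries (53.8 to 60.1 CPM) lay above all L + N libraries (50.7 to 53.4 CPM). The interaction, on the log2 scale, was 0.37 (standard error 0.140) and did not pass the quasi-likelihood test of edgeR with the Benjamini-Hochberg method (adjusted p = 0.322). The opposite movement itself was not tested in another way.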

How the results depend on the processing

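No gene that passed turned its direction under the alternatives run. With all alternatives except left-out libraries, 692 values of single genes kept their side of the threshold, 33 lost it and 10 gained it. With libraries left out, 1136 kept it, 74 lost it and 14 gained it. Most values that kept their side were of genes that did not pass in the main test, so these counts do not measure how firm the calls were. Over all alternatives, MRPL1 passed in 16 of 20 for L + N against L − N, MRPL33 in 4 of 20, and RPS27L in 5 of 19 for NCG. Without L − N replicate 1 more cytosolic genes passed, as given above, and the cause was not tested. With single libraries left out, the number of cytosolic genes passing ran from 0 to 31 for HF against LF, 0 to 1 for NCG, 0 to 40 for H − N against L − N and 0 to 1 for L + N against L − N. For the mitochondrial genes it ran from 0 to 3 for NCG, 0 to 3 for H − N against L − N, 0 to 8 for L + N against L − N and 0 to 4 for H + N against L − N. The cytosolic median ran from 0.25 to 0.56 for H − N against L − N and from −0.050 to 0.27 for H + N against L − N.

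DESeq2 called 10 cytosolic genes for HF against LF, 6 cytosolic and 3 mitochondrial genes for H − N against L − N, and 10 mitochondrial genes for L + N against L − N. With the length correction, 0 genes of either class passed for NCG, 0 cytosolic and 2 mitochondrial genes for L + N against L − N and 0 mitochondrial genes for H + N against L − N. With the length correction and the replicate block together, all of these counts were 0. Without the filter, 0 cytosolic genes passed for NCG, 2 mitochondrial genes for L + N against L − N and 0 for H + N against L − N. With only the groups compared, 2 and 0 mitochondrial genes passed in the last pair, and with RLE scaling 1 passed for H + N against L − N. Except for DESeq2, the shares of all genes tested that passed under these settings are not reported here. These counts therefore do not tell a loss of calls among the members from one among all genes.

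The correlation of same-numbered libraries ran from −0.32 to 0.28. It was not set against that of differently numbered libraries, so it cannot decide whether replicate numbers pair the libraries. With the replicate block, 0 cytosolic genes passed for NCG, 2 mitochondrial genes for L + N against L − N and 0 for H + N against L − N. The share of all genes tested that passed with this block is not reported here either. Without the 10 most abundant genes the shares of both classes were higher in every group, since the total was smaller. The cytosolic share was 4.88% for L − N, 4.92% for L + N, 6.64% for H − N and 5.42% for H + N. The mitochondrial share was 0.122% for L − N, 0.115% for L + N, 0.126% for H − N and 0.123% for H + N.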
